A study of Mus musculus with 4 samples.

Results

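The genes described here belong to families named for the motile cilium and the sperm flagellum. They were chosen by symbol alone, and 65 of the 32285 genes counted met the rule. It took Dnah, Dnai, Cfap or Spag followed by digits only, Tekt followed by a digit, and every symbol that begins with Rsph. The list held 31 *Cfap*, 12 *Dnah*, 9 *Spag*, 8 *Rsph* and 5 *Tekt* genes, and 0 *Dnai* genes, since the dynein intermediate chains carried older names in the gene list used for counting. They were measured as UMI counts (unique molecular identifiers, each standing for a captured RNA molecule) in single nuclei of the posterior mouse hindbrain, the region that holds the area postrema and the nucleus of the solitary tract (AP/NTS).

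There were 4 libraries, 2 of controls and 2 of mice called AgRP-Gq;POMC-Gi. The AgRP-Gq;POMC-Gi mice carried AgRP-IRES-Cre+/-, hM3DGq fl/-, POMC-Dre+/- and hM4DGi fl/-, so that the activating receptor hM3DGq was placed in AgRP neurons and the inhibitory receptor hM4DGi in POMC neurons of the hypothalamus. The control libraries are labelled WT. By the methods of the study the control group was offspring of the same cross, with the 2 receptor alleles but without Cre and Dre. All mice were 12 to 20 weeks old and of both sexes, and all received the receptor ligand CNO (clozapine N-oxide) at 3 mg per kg into the peritoneum 1 h before the tissue was taken, without access to food. Same-condition tissue was pooled before nuclei were sorted. The sources do not say whether the 2 libraries of a group came from separate mice, nor the sex of the mice in each library. The p-values therefore measure the spread between libraries, which may be technical. Of 44303 barcodes, 39461 were nuclei that passed the quality filter of the authors, in 14 annotated cell types and 184 clusters. The libraries held 49615951, 48904976, 51033439 and 53089402 UMIs in these nuclei, with medians of 3211 to 3502 UMIs per nucleus. In all, 168 of 39293 distinct barcode sequences occurred in more than 1 library. Values of single libraries are given below with both control libraries first and both AgRP-Gq;POMC-Gi libraries after them, by replicate number within each group.

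Motile cilia are driven by an axoneme of doublet microtubules around a central pair. Dynein heavy chains (*Dnah* genes) form the outer arms, which set the beat frequency, and the inner arms, which shape the bend. Radial spokes (*Rsph* genes) pass signals from the central pair, to which *Spag16*, *Spag17* and several *Cfap* products belong, to the dyneins, and tektins (*Tekt* genes) form filaments within the doublets. In the brain, ependymal cells line the ventricles and beat such cilia in tufts to move cerebrospinal fluid, and choroid plexus epithelial cells, which secrete that fluid, bear cilia as well. The names *Cfap* and *Spag* stand for cilia and flagella associated proteins and sperm associated antigens, and some genes so named work outside the cilium.

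Transcription of motile cilium genes is known to depend on the forkhead factor *Foxj1* and on RFX factors, which bind the X-box. The RefSeq promoter table (GRCm38.p6, the build the counts used) held windows of 300 bases, 250 before and 50 after a start site, for 53 of the 65 genes. The letters GTTGCC, which form an arm of the X-box, were searched on both strands and were present in 17 of the 53 genes (32.1%), against 3821 of all 27025 genes with a window (14.1%). The forkhead core GTAAACA was present in 4 of the 53 (7.55%), against 4.05% of all genes. The letters of these motifs allow no overlap with each other. The sequences shown are the stretch around the matches in some of the members whose window held several X-box arms (*Spag16*) or a forkhead core (*Tekt3*, *Cfap43*). Further windows with several arms (*Tekt1*, *Tekt2*, *Cfap44*, *Cfap74*, *Cfap161*, *Cfap298*) or a forkhead core (*Cfap20*, *Dnah17*) are not shown. The stretches are written 5′ to 3′ on the strand of the gene, with each match in capitals. *Spag16* lies on the plus strand of chromosome 1, and the matches start 111 bases before its start site (chr1:69826844-69826887). The forkhead core begins 174 bases before the start of *Tekt3* (plus strand, chr11:63061470-63061506) and 55 bases before that of *Cfap43* (minus strand, chr19:47837395-47837431). This RefSeq start of *Cfap43* lies inside the gene as placed by the annotation used for gene lengths (chr19:47736857-47919287).
Spag16: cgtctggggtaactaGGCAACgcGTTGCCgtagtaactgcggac
Tekt3: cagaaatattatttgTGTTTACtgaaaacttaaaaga
Cfap43: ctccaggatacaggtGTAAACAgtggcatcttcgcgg
A match is a description of the letters and not a binding site. Of the 10 members with at least a 10-fold higher level in ependymal nuclei than in any other type, 8 had a window and 3 of these held an X-box arm, against 14 of the other 45.

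The cilium genes were first compared between cell types. Levels are CPM (UMIs per 1000000 UMIs of a cell type in a library), given as mean ± SD over libraries with at least 5 nuclei of that type. The types come from clusters of the same expression values, so these levels are a description without a test. Ependymal nuclei, 314 in all (76, 64, 90 and 84 per library), stood far above every other type. The 65 genes summed to 26324, 24672, 25696 and 26748 CPM in the 4 libraries (25860 ± 902 CPM, n = 4), which is 2.59% of all UMIs of these nuclei. Choroid plexus nuclei followed with 6128, 7760 and 6652 CPM in the libraries that held at least 5 of them, of which AgRP-Gq;POMC-Gi replicate 1 held 6, and tanycyte-like nuclei with 2271 ± 468 CPM (n = 4). The other 11 types lay between 746 and 1396 CPM. *Spag9* alone was a large part of such sums, at 569 CPM in endothelial nuclei and 558 CPM in astrocytes. All 7 ependymal markers, *Foxj1* among them, were highest in the ependymal type.

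Ependymal and choroid plexus nuclei also led when members were counted per nucleus. A median of 27 of the 65 genes had a UMI in an ependymal nucleus, at a median depth of 2720.5 UMIs, and 305 of 314 nuclei (97.1%, exact 95% interval 94.6 to 98.7) held at least 10 of them. In choroid plexus nuclei the median was 14 genes at 4291 UMIs, and 599 of 773 nuclei (77.5%) reached 10. Neurons, at 8704 UMIs, had a median of 6 genes and tanycyte-like nuclei, at 3198 UMIs, a median of 4, the reverse of their order by CPM. In oligodendrocytes, which build no motile cilia and had a depth near that of ependymal nuclei (2460 UMIs), the median was 1 gene and 0 of 16816 nuclei reached 10. Intervals here cover counting error only.

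**Figure D1:**
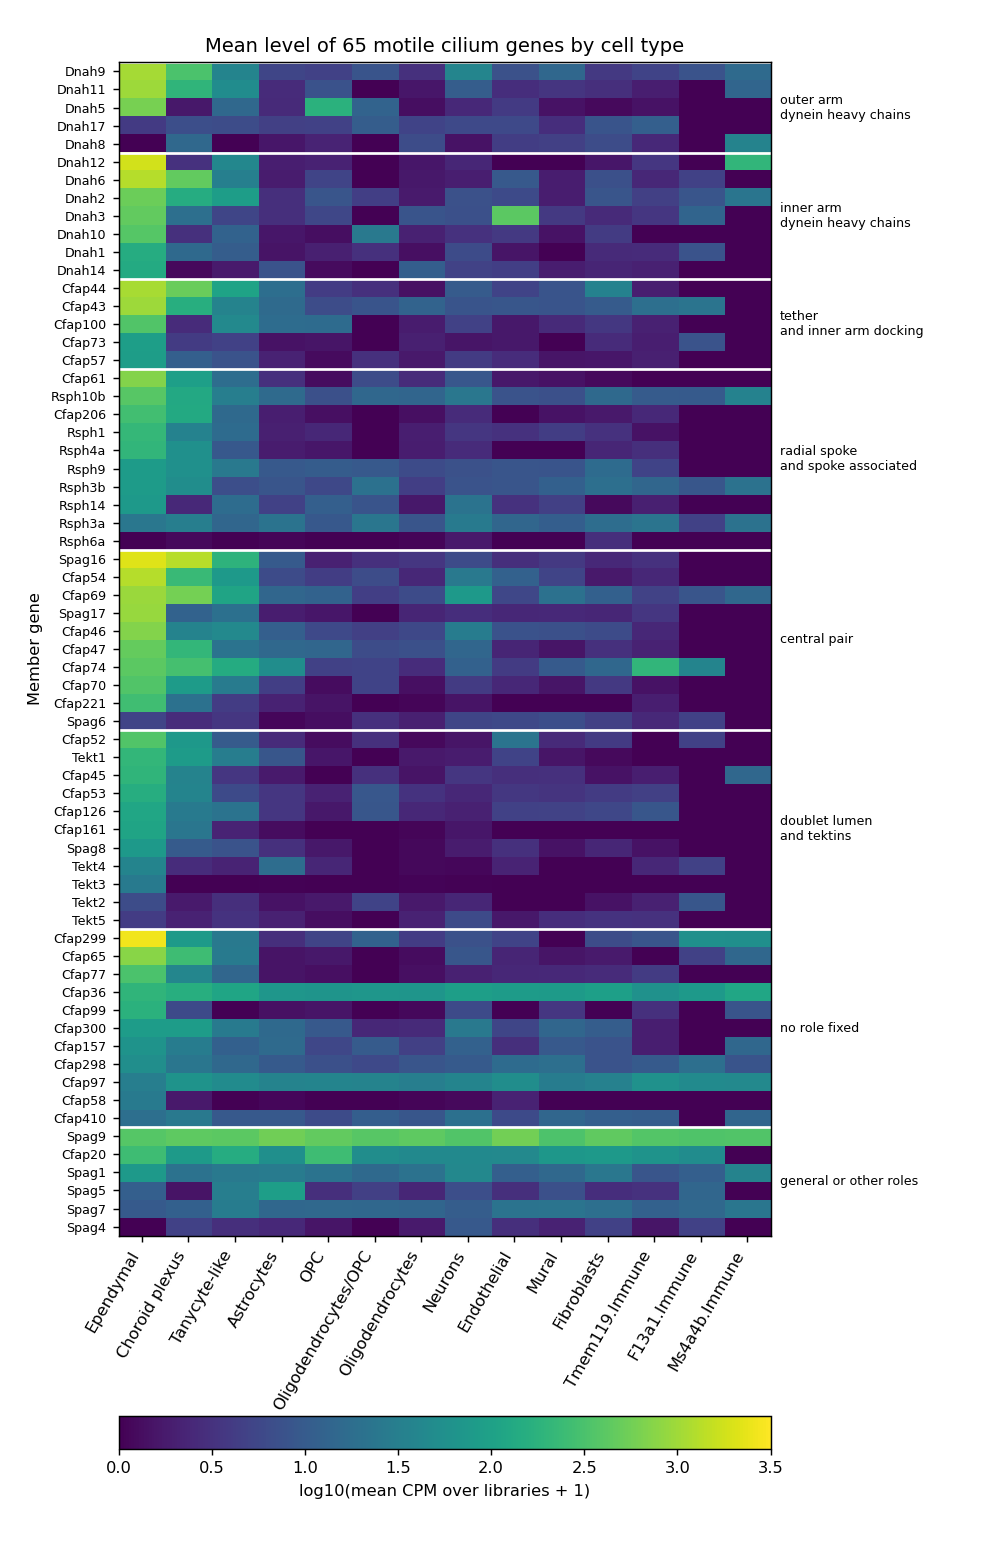
Heat map of the mean level of the 65 motile cilium genes (rows, grouped by their role in the axoneme) in the 14 annotated cell types (columns), as log10(mean CPM + 1) over the libraries with at least 5 nuclei of the type. The ependymal column is the brightest for 52 of the 65 genes, the choroid plexus column follows, and single cells stand out elsewhere, such as *Dnah3* in endothelial nuclei and *Dnah5* in OPC.

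Of the 65 genes, 52 had their highest mean level in ependymal nuclei, and choroid plexus was the next type for 36 genes. Under the alternatives tried (leaving out each library, leaving out possible mixed nuclei, nuclei thinned to 800 UMIs, mean log values per nucleus) the number was 50 to 53. *Cfap* and *Dnah* genes were mostly of this kind, with 29 of 31 and 10 of 12 genes highest in ependymal nuclei, as were 6 of 8 *Rsph* genes. Only 4 of 9 *Spag* genes and 3 of 5 tektins were. In 10 genes the ependymal level was at least 10-fold that of the next type: *Tekt3*, *Spag17*, *Cfap299*, *Cfap99*, *Cfap58*, *Cfap46*, *Dnah10*, *Cfap221*, *Dnah14* and *Cfap73*. *Tekt3* was the furthest apart, with 15.6, 19.9, 33.0 and 34.8 CPM in ependymal nuclei against 0.0970 CPM in oligodendrocytes, the next type, and a total of 37 UMIs in all nuclei. No UMI of *Dnah8*, *Rsph6a* or *Spag4* was found in 314 ependymal nuclei, which allows up to 1.17% of nuclei with a UMI by the exact interval and does not limit the share of nuclei that express the gene. *Dnah8* and *Rsph6a* are known from the sperm flagellum, where they take the places of *Dnah5* and *Rsph4a*.

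Among the outer arm heavy chains, *Dnah9* had 1218, 1005, 985 and 1056 CPM in ependymal nuclei. *Dnah11* reached 1069, 742, 1013 and 1039 CPM and *Dnah5* 609, 602, 606 and 582 CPM. All 3 are outer arm chains of multiciliated cells, and in each the libraries of the 2 groups overlapped. *Dnah17*, the other sperm chain, had 3 UMIs.

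The 7 inner arm heavy chains were all highest in ependymal nuclei, from *Dnah12* (1905, 1702, 1825 and 1769 CPM) and *Dnah6* (1257, 1294, 1256 and 1295 CPM) down to *Dnah14* at 136 ± 21.6 CPM. *Dnah12* was found in 93.3% of ependymal nuclei (exact interval 90.0 to 95.8). *Dnah2* stood at 513 ± 50.5, *Dnah3* at 458 ± 62.7, *Dnah10* at 372 ± 59.8 and *Dnah1* at 147 ± 21.7 CPM. The proteins that hold these arms to the doublet were present as well: *Cfap44* and *Cfap43*, the tether of an inner arm dynein, at 1111 ± 143 and 961 ± 105 CPM, and *Cfap100* at 349 ± 41.3 CPM.

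Central pair genes included the second highest member, *Spag16*, at 1983, 1827, 2385 and 2217 CPM. *Cfap54* (1302 ± 56.3 CPM), *Cfap69* (932 ± 126 CPM) and *Spag17* (909 ± 96.4 CPM) followed. Among radial spoke and spoke associated genes, *Cfap61* was the highest at 705 ± 52.9 CPM. The *Rsph* genes were lower. The spoke genes *Rsph10b* and *Rsph14* stood at 384 ± 45.3 and 75.1 ± 13.3 CPM, and the spoke head genes *Rsph1*, *Rsph4a* and *Rsph9* at 214 ± 40.3, 200 ± 22.8 and 83.3 ± 23.0 CPM. *Spag1*, a factor for the assembly of dynein arms in the cytoplasm, reached 78.1 ± 14.7 CPM.

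The tektins spanned a wide range within ependymal nuclei. *Tekt1* had 211, 259, 157 and 191 CPM, *Tekt4* 27.3, 54.7, 33.0 and 30.4 CPM, *Tekt3* 25.8 ± 9.49 CPM, *Tekt2* 5.58 ± 2.92 CPM and *Tekt5* 3.15 ± 4.13 CPM. *Tekt2* and *Tekt5* rested on 5 and 3 UMIs. Other proteins of the doublet lumen were above most tektins, such as *Cfap52* at 350 ± 53.6 and *Cfap45* at 194 ± 53.2 CPM.

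The highest member was *Cfap299*, for which no place in the axoneme was assigned here, with 3025, 2713, 2550 and 2508 CPM in ependymal nuclei and a UMI in 92.7% of them. The order of the highest genes was *Cfap299*, *Spag16*, *Dnah12*, *Cfap54*, *Dnah6* and *Cfap44*. The libraries of neighbours in this order overlapped for *Spag16* and *Dnah12*, for *Cfap54* and *Dnah6* and for *Cfap44* and *Dnah9*. In nuclei, counts include unspliced RNA and grow with the length of a gene. Gene length ran from 2.26 to 898 kb, with a median of 56.4 kb, and Spearman's rho between length and ependymal CPM across the 65 genes was 0.64, a description over genes that share the same libraries. *Spag16* is the longest (chr1:69826970-70725132, plus strand, 898 kb), and *Cfap299* is long as well (chr5:98329304-98802047, plus strand, 473 kb). Per kb of gene the order of levels was another, with *Spag8*, a protein of the doublet lumen, first at 33.8 CPM per kb, then *Cfap65* at 22.5 and *Rsph4a* at 18.3.

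**Figure D2:**
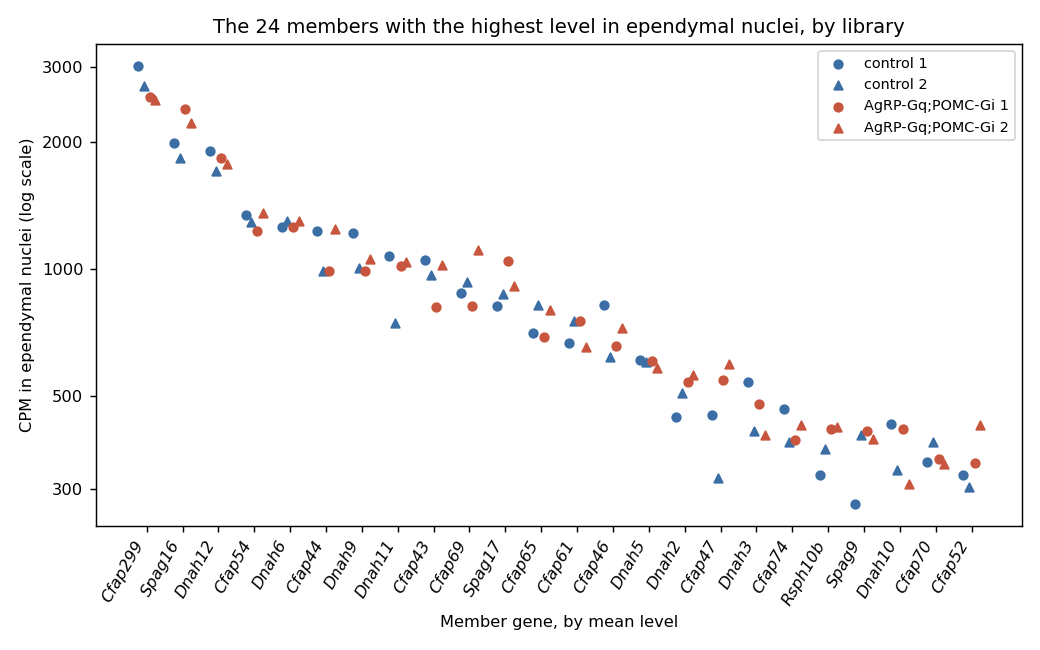
Level of the 24 highest members in ependymal nuclei, in CPM on a log axis, with a point for each of the 4 libraries (control and AgRP-Gq;POMC-Gi). The 4 points lie close together for *Dnah6* (1256 to 1295 CPM) and *Dnah5* (582 to 609 CPM) and apart for *Cfap47* (319 to 595 CPM).

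The 2 ciliated epithelia were then set side by side. Choroid plexus nuclei numbered 2, 436, 6 and 329, so the comparison used replicate 2 of each group alone, with 430991 ependymal and 3505500 choroid plexus UMIs, where 1 choroid plexus UMI is worth 0.285 CPM. Ratios have an exact 95% interval for counting error. The difference was uneven over the list. Of the 65 genes, 17 were at least 10-fold higher in ependymal nuclei, 7 of them at least 50-fold, while 32 were 2- to 10-fold higher, 12 were within 2-fold. The other 4 (*Dnah17*, *Spag4*, *Dnah8* and *Rsph6a*) had no ependymal UMI and 31, 20, 6 and 1 choroid plexus UMIs. The median ratio was 4.39.

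The members with the largest ratios were mainly dynein heavy chains. *Dnah12* had 749 UMIs in ependymal and 11 in choroid plexus nuclei, or 1702 and 1769 CPM against 2.57 and 3.84 CPM, a ratio of 554 (308 to 1114). Of the inner arm chains, 5 of 7 were at least 50-fold higher in ependymal nuclei: *Dnah12*, *Dnah14* (415, interval 71.2 to 16701, with 1 choroid plexus UMI), *Dnah10* (102, 55.3 to 209), *Dnah1* (70.2, 33.7 to 169) and *Dnah3* (59.6, 38.8 to 95.6). The other 2 were not, with *Dnah2* at 4.54 (3.85 to 5.34) and *Dnah6* at 2.77 (2.51 to 3.05). Outer arm chains were split in the same manner. *Dnah5* had 602 and 582 CPM in ependymal nuclei and 2.06 and 0 CPM in choroid plexus, a ratio of 519 (200 to 1918), while *Dnah9* (4.39, 3.91 to 4.94) and *Dnah11* (4.65, 4.09 to 5.27) kept about the ratio of the list as a whole.

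Docking, spoke and central pair genes divided too. *Cfap100*, which belongs to a complex that anchors inner arms, differed 127-fold (64.8 to 282), and *Cfap73*, its partner, 19.3-fold (10.52 to 37.1). *Cfap46* and *Spag17* of the central pair differed 49.1-fold (36.1 to 68.2) and 48.8-fold (37.4 to 64.6), whereas *Spag16* differed 1.78-fold (1.65 to 1.91), *Cfap74* 1.58-fold (1.34 to 1.86) and *Cfap69* 1.49-fold (1.35 to 1.65). *Spag16* was thus a high gene in both epithelia, with 1091 and 1212 CPM in choroid plexus. Of the spoke genes only *Rsph14* passed 10-fold (33.6, 15.2 to 84.1). *Cfap299* was 25.6-fold higher in ependymal nuclei (22.7 to 28.9). *Tekt3* had 12 UMIs in ependymal and 0 in choroid plexus nuclei, a ratio of at least 22.6 by the exact interval, and *Tekt1* was 2.69-fold higher (2.11 to 3.40). *Cfap97* pointed the other way, at 27.8 against 52.5 CPM (ratio 0.530, 0.269 to 0.949).

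**Figure D3:**
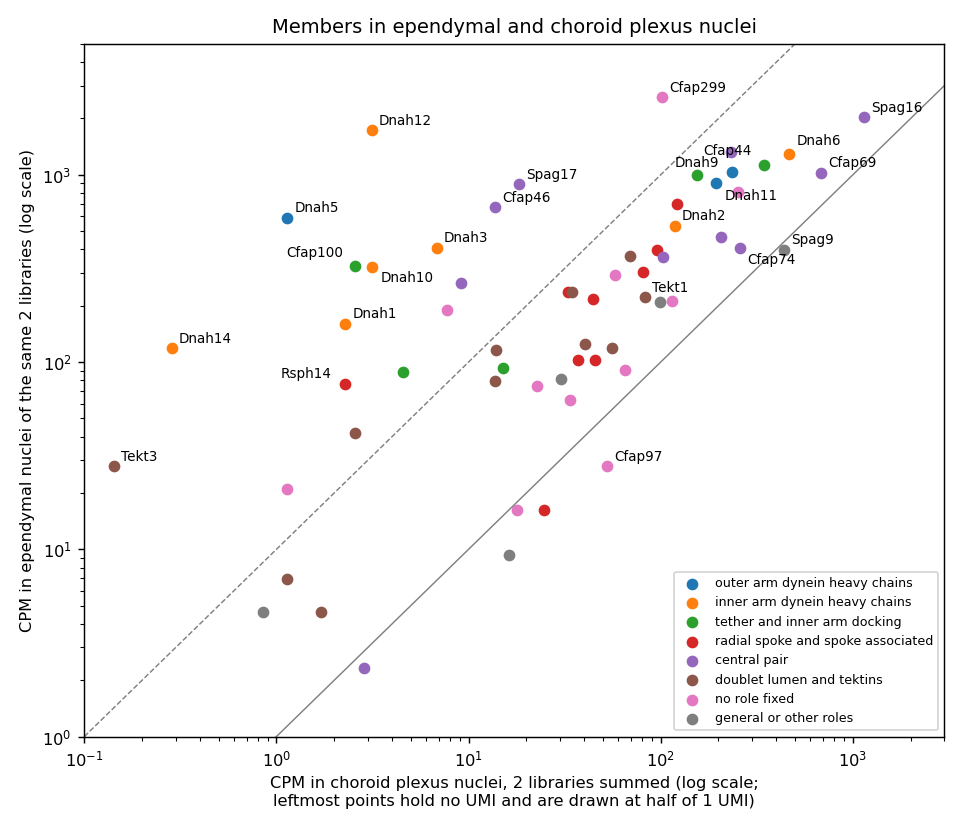
Each point is a member with an ependymal UMI (the 4 without are not drawn), placed by its CPM in choroid plexus nuclei (x, log axis) and in ependymal nuclei (y, log axis) of replicate 2 of both groups summed, coloured by role; the solid line marks equal levels, the dashed line a 10-fold difference, and points without a choroid plexus UMI are drawn at a value below that of 1 UMI. *Dnah12*, *Dnah5*, *Dnah14*, *Dnah10*, *Dnah3*, *Dnah1* and *Cfap100* lie far above the dashed line, *Dnah9*, *Dnah11*, *Dnah2* and *Dnah6* below it, and *Spag16* near equality.

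Other genes of the motile axoneme, listed apart from the symbol rule, also differed unevenly between the 2 epithelia. Of 60 genes, 12 were at least 10-fold and 4 at least 50-fold higher in ependymal nuclei, with a median of 4.13. The 4 were *Adgb* (361-fold, 152 to 1123), *Ttc29* (275-fold, 116 to 858), *Tctex1d1* (228-fold, 60.2 to 1927) and *Dnah7a* (94.3-fold, 49.5 to 202), chosen after their values were seen. Reads of *Dnah7a* can fall to its near-identical copies *Dnah7b* and *Dnah7c*, which differed 1.66- and 2.89-fold, so its value is uncertain. *Hydin*, a large central pair protein, differed 10.6-fold (9.12 to 12.3), *Spef2* 3.34-fold and *Lrriq1* 1.39-fold. In a list of 36 genes of primary cilia and intraflagellar transport, which motile and sensory cilia share, 0 were at least 10-fold higher and the median was 1.58. Its highest genes were *Dync2h1* (1.88-fold), *Ift88* (2.62-fold), *Bbs9* (2.17-fold) and *Ttc8* (4.56-fold).

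The transcriptional regulators of the motile cilium did not follow one ratio. *Gmnc*, which acts at the top of the multiciliated cell programme, had 54.7 and 39.1 CPM in ependymal and 2237 and 1980 CPM in choroid plexus nuclei, a ratio of 0.0219 (0.0133 to 0.0338). *Myb*, a transient factor of ciliogenesis elsewhere, was on the other side, with 29 ependymal and 2 choroid plexus UMIs (118-fold, 29.8 to 1020), as was *Rfx4* (92.7-fold, 48.6 to 199). *Foxj1* was 3.56-fold (2.78 to 4.53) and *Rfx2* 2.45-fold (1.94 to 3.07) higher in ependymal nuclei. *Rfx3*, the most abundant of the RFX genes at 1040 and 1152 CPM in ependymal and 1129 and 1270 CPM in choroid plexus nuclei, was near equality (0.923, 0.837 to 1.01), and so was *Trp73* (1.43, 0.986 to 2.03). *E2f4* and *E2f5*, which serve basal body amplification, had ratios of 0.654 and 0.803 with intervals that included 1. *Mcidas* and *Foxn4* had no UMI in ependymal or choroid plexus nuclei, *Ccno* had 2 ependymal UMIs in all 4 libraries, and *Cdkn2c* had 5 UMIs in choroid plexus.

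Markers of either epithelium were also counted in the other. The 6 choroid plexus markers, *Ttr* among them, summed to 82.0, 3972, 124 and 2182 CPM in ependymal nuclei, high in both libraries that held many choroid plexus nuclei. The 7 ependymal markers summed to 125 and 120 CPM in choroid plexus nuclei of those libraries, against 2902 and 2299 CPM in ependymal nuclei. The part of either in the ratios was not tested.

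Tanycyte-like nuclei, 202 in all (26, 26, 67 and 83), had low levels of most of the list, with 27 of 65 members found in 5% or more of the nuclei. Tanycytes are ventricular glia that as a rule carry few cilia. These nuclei had a median of 4 members per nucleus and 18 of 202 (8.91%) held at least 10. *Dnah12* had 61.5, 62.5, 9.71 and 27.6 CPM and *Cfap299* 10.2, 0, 72.9 and 18.4 CPM, each on 22 UMIs. *Spag16* was the highest of these 3, at 338, 125, 68.0 and 196 CPM. Their markers gave the name of the type little support: *Rax* and *Gpr50* were at 4.86 and 8.62 CPM and *Vcan*, *Col23a1* and *Frzb* were higher in other types. Its cluster 141 (60 nuclei) summed to 3448 ± 545 CPM of cilium genes and its cluster 61 (142 nuclei) to 1796 ± 484 CPM.

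Several members were also, or mainly, transcribed outside ciliated epithelia. *Dnah3* was a high gene of endothelial nuclei, at 523, 328, 379 and 417 CPM against 539, 413, 478 and 404 CPM in ependymal nuclei, so the libraries of both types overlapped. It had a UMI in 35.2% of 789 endothelial nuclei (exact interval 31.9 to 38.7) at a median depth of 1460 UMIs, against 2.85% of choroid plexus nuclei at 4291 UMIs and 1.72% of oligodendrocytes at 2460 UMIs. In endothelial cluster 24 (341 nuclei) it reached 577 ± 122 CPM. *Dnah3* (chr7:119922671-120095280, minus strand) shares 34293 bases with *Lyrm1* on the opposite strand, which had 80.8 CPM in endothelial and 343 CPM in ependymal nuclei. The sources used here do not say whether counting used the strand, so reads in the shared stretch cannot be assigned with certainty.

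*Dnah5* was present in oligodendrocyte precursors (OPC) at 188, 203, 147 and 147 CPM, with a UMI in 42.5% of 784 nuclei (39.0 to 46.0), against 0.0892% of 16816 oligodendrocytes (median depths 3728 and 2460 UMIs). *Cfap20*, a protein of the doublet that also occurs outside cilia, reached 231, 170, 354 and 263 CPM in OPC, level with 226, 214, 379 and 204 CPM in ependymal nuclei. *Cfap74*, a central pair gene, had 240, 188, 160 and 215 CPM in microglia (the Tmem119 type) and a UMI in 29.5% of 969 nuclei at a median of 1871 UMIs, against 0.452% of oligodendrocytes. Part of *Cfap74* lies under a noncoding gene of the opposite strand, *5830444B04Rik*, at 62.1 CPM in microglia.

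The *Spag* genes were the most divided. *Spag9*, a scaffold of JNK signalling and motor proteins, was broadly present and highest in endothelial nuclei (491, 560, 582 and 641 CPM), with astrocytes at 558 ± 16.5 CPM and ependymal nuclei at 372 ± 63.6 CPM. The libraries of endothelial nuclei and astrocytes overlapped, and astrocytes were the highest without AgRP-Gq;POMC-Gi replicate 2 and by the mean log value per nucleus. *Spag5*, a protein of the mitotic spindle, was highest in astrocytes, at 72.9, 79.7, 103 and 104 CPM and in 24.4% of 4378 nuclei (23.2 to 25.7), against 0.357% of oligodendrocytes. It had 30.5 ± 9.58 CPM in tanycyte-like and 10.3 ± 10.4 CPM in ependymal nuclei. *Spag5* (chr11:78301529-78322457, plus strand) ends 510 bases before *Aldoc* on the same strand, an astrocyte enzyme gene with 455 CPM in astrocytes and 390 CPM in tanycyte-like nuclei, and reads between them were not resolved. *Spag7* was low in every type, with 28.8 ± 24.3 CPM in tanycyte-like nuclei on 17 UMIs.

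**Figure D4:**
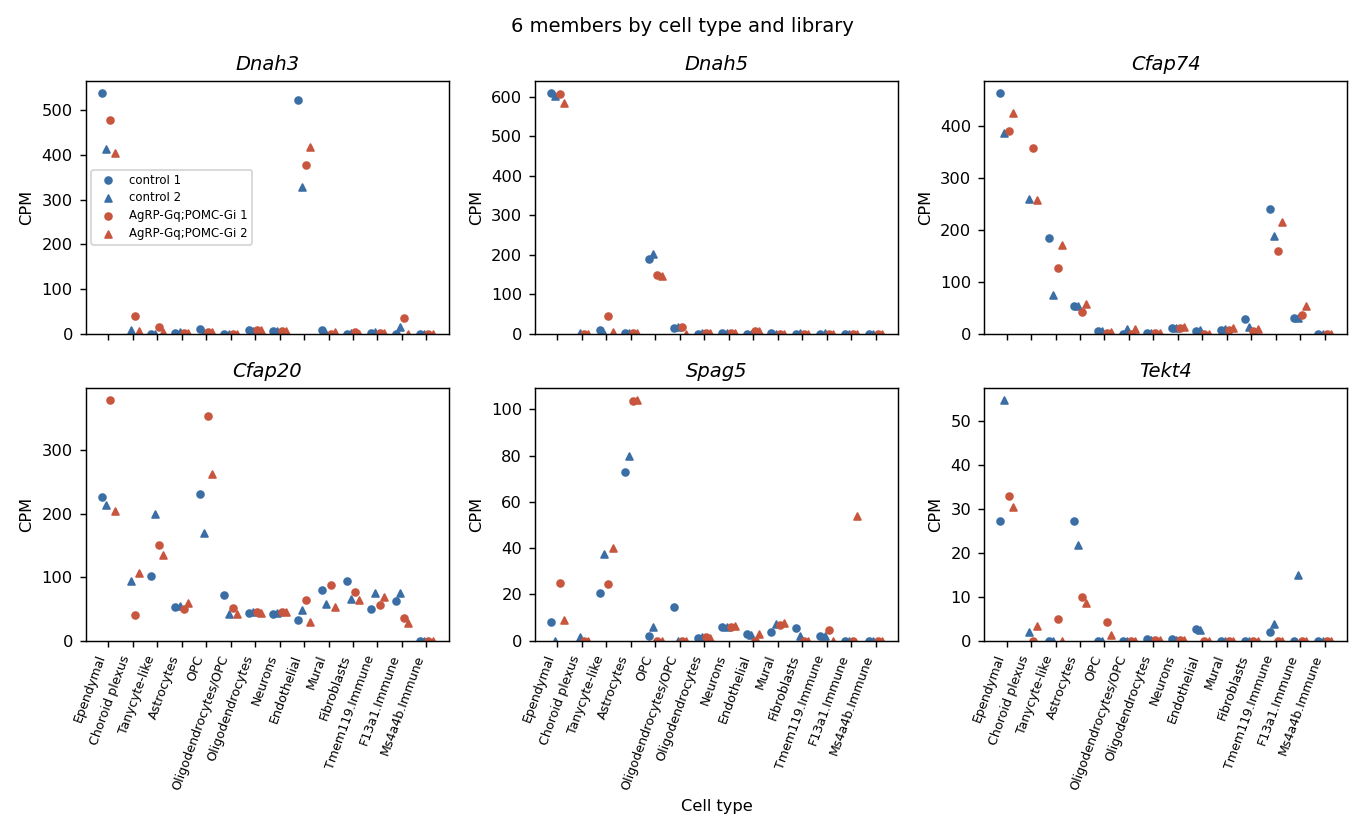
Levels of *Dnah3*, *Dnah5*, *Cfap74*, *Cfap20*, *Spag5* and *Tekt4* in each cell type, in CPM with a point for each library with at least 5 nuclei of the type. *Dnah3* has overlapping points in endothelial and ependymal nuclei, *Dnah5* and *Cfap20* stand out in OPC, *Cfap74* in microglia and *Spag5* in astrocytes, and the *Tekt4* points of astrocytes split by group (27.3 and 21.8 against 9.86 and 8.62 CPM).

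A few members were highest in a type only on small numbers. *Dnah8* had 35.3 CPM in the immune type named for *Ms4a4b* on 4 UMIs, and *Dnah17* 10.53 CPM in microglia. *Dnah12*, highest in ependymal nuclei, had 110, 66.0, 609 and 28.7 CPM in the *Ms4a4b* type from 6 of 61 nuclei. *Cfap97* (61.8 ± 15.8 CPM in choroid plexus, 57.3 ± 16.0 CPM in microglia), *Cfap410* (25.3 CPM) and *Rsph3a* (29.9 CPM) were listed highest in choroid plexus, over 3 libraries of which the smallest held 6 nuclei. *Rsph3a* and *Rsph3b*, and *Spag6* and *Spag6l*, are near-identical pairs whose reads may be split, and their values are uncertain.

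Neurons as a whole had low levels of most of the list. The highest members were *Spag9* (359 ± 7.25 CPM), *Cfap36* (91.8 ± 6.15 CPM) and *Cfap69*, the last with 74.3, 77.0, 71.2 and 88.6 CPM and a UMI in 46.2% of 12539 nuclei, at a median of 8704 UMIs, against 1.34% of oligodendrocytes. Of the 120 neuronal clusters that had 5 or more nuclei in each library, its highest cluster was 146 (Rxfp1/Ebf2), at 444 ± 80.4 CPM.

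*Dnah11* had its highest neuronal level in 1 cluster. In cluster 72 (Ano2/Foxp2, 127 nuclei) it had 490, 332, 134 and 268 CPM from 533, 16, 6 and 142 UMIs, and 101 of 127 nuclei (79.5%, 71.5 to 86.2) had a UMI. Most of these UMIs were from control replicate 1, and the share is pooled over libraries. The median neuronal cluster stood at 1.17 CPM and the next highest, cluster 49, at 82.7 CPM, so cluster 72 was 261-fold above the median. It thus reached 306 ± 148 CPM, against 966 ± 151 CPM in ependymal nuclei. *Dnah11* (chr12:117877982-118199043, minus strand) shares 725 bases with *Cdca7l* on the opposite strand, which had 4.41 CPM in neurons.

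Lower peaks were found for other members. *Cfap53* had 0, 21.9, 36.6 and 31.8 CPM in cluster 97 (Gfral/Sctr), a type of area postrema neuron. *Tekt2* reached 17.5 ± 8.92 CPM in cluster 148 on 4 UMIs. These values did not move when the 12 nuclei outside the ependymal type with at least 3 ependymal markers were left out. Of those nuclei only 1, 1, 1 and 2 per library were neurons, among 12539 neurons. Leaving them out could hardly change a neuronal cluster, so mixed nuclei were not tested in this way.

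Ependymal nuclei fell into 2 clusters with much the same total. Cluster 37 (51, 47, 55 and 32 nuclei) summed to 26287 ± 1236 CPM and cluster 71 (25, 17, 35 and 52 nuclei) to 25279 ± 2932 CPM. *Dnah12* (1824 ± 29.9 and 1764 ± 336 CPM) and *Dnah6* (1294 ± 148 and 1305 ± 151 CPM) were alike in both. In 6 of the 62 members with an ependymal UMI the libraries of the clusters did not overlap (9.68%, against 4.94% of all 18476 genes with such a UMI). Among genes found in 5% or more of ependymal nuclei these were 5 of 56 members (8.93%) and 7.63% of 8632 genes, a share near that of the members. *Dnah3* had 727, 534, 677 and 783 CPM in cluster 37 and 91.97, 58.6, 96.0 and 102 CPM in cluster 71. *Dnah14* (176 ± 38.7 and 62.6 ± 26.6 CPM) and *Dnah10* (441 ± 67.5 and 247 ± 30.9 CPM) were lower in cluster 71 as well, while *Rsph4a* was higher there (174 ± 3.64 and 242 ± 48.5 CPM). *Spag8* and *Tekt2* were the others, the latter on 5 UMIs. Of the 7 astrocyte markers, 4 had the higher mean in cluster 37 and 3 in cluster 71, and only the water channel *Aqp4* had libraries that did not overlap (456 ± 56.9 and 78.3 ± 29.7 CPM). Among the ependymal markers, *Tmem212* was lower (1266 ± 111 and 832 ± 73.4 CPM) and *Fam183b* higher (79.4 ± 33.5 and 178 ± 35.5 CPM) in cluster 71, without overlap. The clusters were formed on expression, so these differences are a description.

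The study's main question for these libraries was which hindbrain cells respond to CNO when it drives AgRP and silences POMC neurons together. The cilium genes were therefore compared between AgRP-Gq;POMC-Gi and control libraries within each cell type, by edgeR's quasi-likelihood test on UMI counts summed per library and type, fitted on all genes found in 5% or more of the nuclei of that type and adjusted by the Benjamini-Hochberg method over them. Choroid plexus was not tested, since 1 of its libraries held fewer than 5 nuclei. In the other 13 types, 59 of the 65 genes entered at least 1 test and 6 none. Of 176 member tests, 1 passed an adjusted p of 0.05 (0.09% of 101074 gene tests passed over all genes). It was that of *Tekt4* in astrocytes, a gene that met the filter there only through the control libraries, where it was higher. With 2 libraries against 2, an exact permutation test of a single gene cannot go below p = 0.333. Outside the list, *Tsix*, a gene of the X chromosome, had 318, 159, 162 and 0 CPM in mural nuclei. It thus differed between the 2 AgRP-Gq;POMC-Gi libraries, and whether the libraries differ in the sex of the mice was not tested. Fewer cells with a transcript and less transcript per cell cannot be told apart in such sums.

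In ependymal nuclei no gene of the cilium passed the test. Of the 56 members tested, 0 passed and 4 had an unadjusted p below 0.05, among 8632 genes of which 0% passed and 4.02% had such a p. By DESeq2, 0 members passed and 0 had an unadjusted p below 0.05. The median log2 fold change of the members was 0.03, against -0.01 over all genes, and 34 of 56 were above 0, or 25 of 56 without TMM factors. *Dnah6* had 1257 and 1294 CPM in the controls against 1256 and 1295 CPM (log2 fold change 0.04 ± 0.21 SE, adjusted p = 0.991 by edgeR). *Dnah12* (0.04 ± 0.20 SE), *Dnah5* (0.02 ± 0.23 SE) and *Cfap299* (-0.14 ± 0.19 SE) had differences of similar size. The median SE of the members was 0.29 on the log2 scale, with 2 libraries per group and an adjustment over 8632 genes. Even the largest fitted difference, 1.12 (*Cfap57*, adjusted p = 0.991 by edgeR), did not pass. A lack of calls therefore does not show that changes of that size were absent.

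The 4 genes with an unadjusted p below 0.05 were picked by that p, and all had a fitted difference above 0. *Cfap57*, which docks inner arms, had 54.6 and 59.7 CPM in the controls against 119 and 122 CPM (log2 fold change 1.12 ± 0.38 SE). *Cfap73* had 54.6 and 69.7 against 136 and 104 CPM (1.01 ± 0.39 SE), *Cfap300*, an assembly factor of dynein arms, 54.6 and 69.7 against 111 and 109 CPM (0.87 ± 0.38 SE), and *Cfap47* 449 and 319 against 544 and 595 CPM (0.60 ± 0.25 SE). None passed the adjustment (adjusted p = 0.991 in edgeR for all 4). The other members with large fitted differences were *Tekt3* (0.97 ± 0.60 SE), *Rsph3a* (-0.78 ± 0.65 SE) and *Cfap97* (-0.69 ± 0.57 SE), which had 24, 22 and 29 UMIs over all libraries.

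In the other lists no gene passed in ependymal nuclei either. Of the 60 other motile cilium genes 59 were tested, 0 passed, 2 had an unadjusted p below 0.05 and the median was 0.06. Of the 36 primary cilium and transport genes 34 were tested, 0 passed, 0 had such a p and the median was 0.21, with *Ttc8* at 0.36, *Bbs9* at 0.24, *Ift88* at 0.22 and *Dync2h1* at 0.12. Of the 13 regulators 9 were tested and 0 passed. *Rfx4* alone had an unadjusted p below 0.05, with 226 and 239 CPM in the controls against 536 and 287 CPM (0.87 ± 0.31 SE, adjusted p = 0.991 in edgeR). *Foxj1* varied from 133 to 304 CPM within the control group and had a difference of 0.05 ± 0.38 SE. *Hydin*, *Spef2* and *Lrriq1* were between -0.06 and -0.02.

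**Figure D5:**
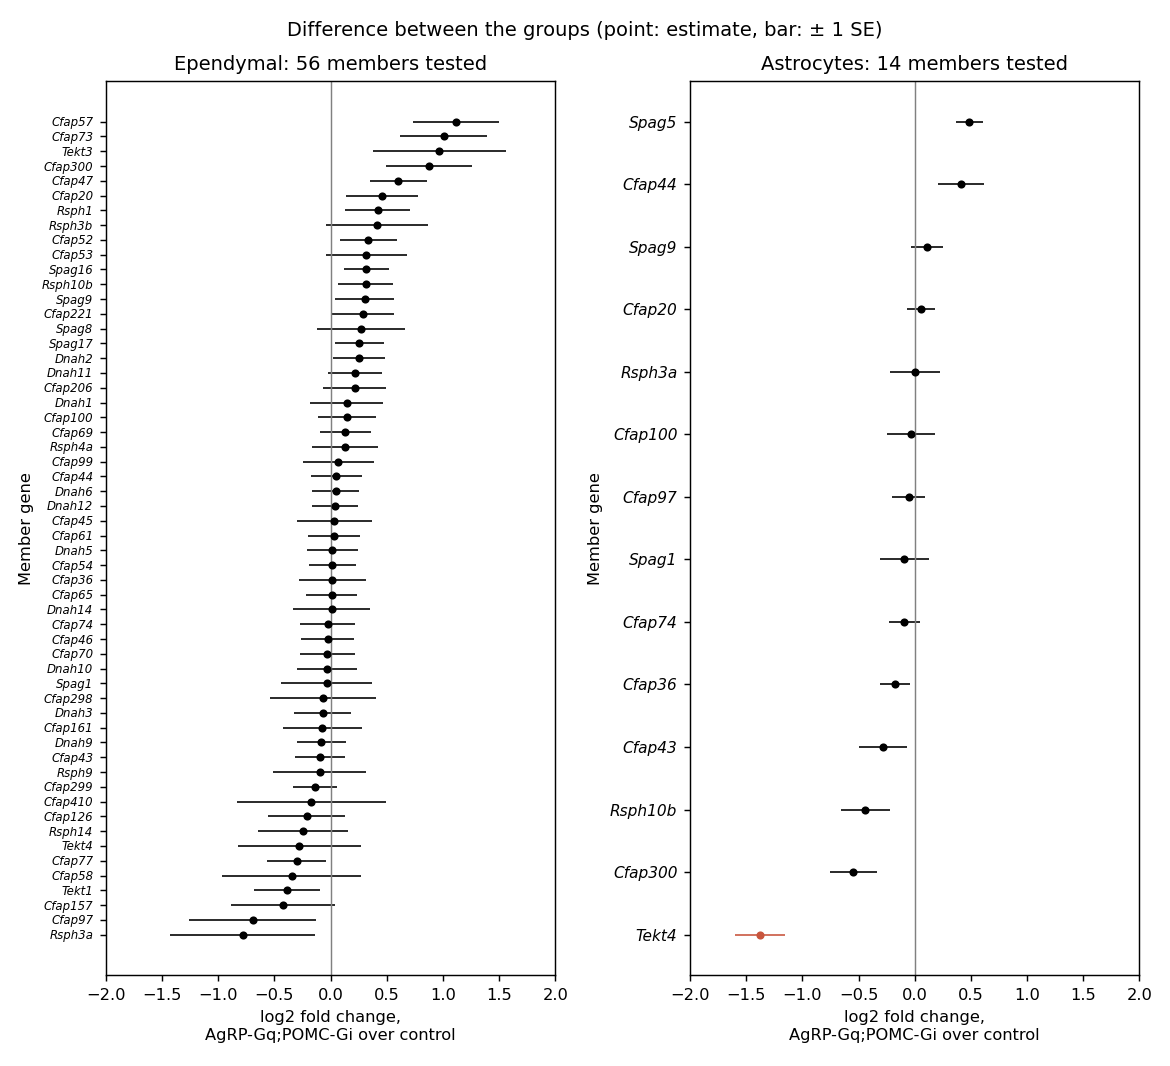
Log2 fold change of AgRP-Gq;POMC-Gi over control for the 56 members tested in ependymal nuclei and the 14 tested in astrocytes. Bars are ± 1 SE, derived from edgeR's F statistic. In ependymal nuclei the values run from -0.78 (*Rsph3a*) to 1.12 (*Cfap57*) and none passed an adjusted p of 0.05; in astrocytes *Tekt4*, in red, at -1.38 passed.

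In tanycyte-like nuclei 27 members were tested, 0 passed and 0 had an unadjusted p below 0.05, among 8739 genes with 0% passed and 6.1% with such a p. The median SE was 0.72 on the log2 scale, so the test there was coarse. In neurons 29 members were tested and 0 passed, among 12115 genes with 0% passed. *Cfap54* had an unadjusted p below 0.05 (22.04 and 24.7 CPM in the controls against 24.3 and 30.4 CPM, 0.28 ± 0.11 SE, adjusted p = 0.810 by edgeR), against 5.51% of all genes.

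*Tekt4* in astrocytes was the single member that passed. Its product is a tektin known from the sperm flagellum and from motile cilia. It had 27.3 and 21.8 CPM in the controls against 9.86 and 8.62 CPM, from 126, 87, 33 and 34 UMIs, and fell by 1.38 on the log2 scale (SE 0.22, adjusted p = 0.01998 by edgeR's quasi-likelihood test). The groups did not overlap, and the share of all genes that separate in this way was not counted. *Tekt4* met the filter of 5% of nuclei only through the control libraries, since the AgRP-Gq;POMC-Gi libraries had 33 and 34 UMIs in 1042 and 1149 nuclei. In astrocytes 0.626% of 8462 genes passed, 53 in number, and 3 of 14 members and 10.3% of all genes had an unadjusted p below 0.05. Without AgRP-Gq;POMC-Gi replicate 2 the value was -1.19 with an adjusted p of 0.0609 by edgeR, past the threshold no longer. DESeq2 called 0 members in astrocytes and gave *Tekt4* -1.37 with no adjusted p.

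A UMI of *Tekt4* was present in 5.89% of 4378 astrocytes (exact interval 5.21 to 6.63), against 10.51% of ependymal nuclei and 0.0595% of oligodendrocytes. Astrocytes formed 11 clusters. In 10 of them both AgRP-Gq;POMC-Gi libraries lay below both control libraries, as in cluster 16 (25.4 and 29.3 against 12.2 and 12.8 CPM), and cluster 52 had no UMI. Clusters 48 and 54, both among the 10, held 4 and 2 UMIs. These clusters share the same 4 libraries and are not replicates. They make up the sum by which *Tekt4* passed, so their direction is no further support. The share of all genes that separate in as many clusters was not counted. *Tekt4* lies on the plus strand of chromosome 17 (chr17:25454615-25476602). In ependymal nuclei its difference was -0.28 ± 0.55 SE (adjusted p = 0.991 by edgeR), and whether the types differ was not tested. The 7 ependymal markers summed to 18.8, 28.1, 16.4 and 24.1 CPM in astrocytes, overlapping between groups. Astrocyte nuclei had median depths of 4008, 3395, 3010.5 and 3202 UMIs, lower in both AgRP-Gq;POMC-Gi libraries, and the part of depth in the difference was not tested.

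Other members with off-type expression did not pass in the test as described. *Spag5* in astrocytes was fitted higher in the AgRP-Gq;POMC-Gi group (0.49 ± 0.12 SE, adjusted p = 0.112 by edgeR). It passed without the filter on genes (adjusted p = 0.0375 by edgeR). In OPC, *Cfap20* was at 0.65 ± 0.18 SE (adjusted p = 0.360) and *Dnah5* at -0.36 ± 0.16 SE (adjusted p = 0.733), both from edgeR. *Cfap20* was at 0.90 without AgRP-Gq;POMC-Gi replicate 2, a fit with 1 library in that group. It passed without the filter on genes (adjusted p = 0.0468 by edgeR), and the share of all OPC genes that passed so is not given here. In endothelial nuclei 5 members were tested, with log2 fold changes from -0.09 to 0.22. Of these, 0 passed and 0 had an unadjusted p below 0.05, among 5884 genes with 0% passed and 6.2% with such a p.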

How the data were processed

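Nuclei of the posterior hindbrain were sorted by DRAQ5, a DNA dye, and sequenced by 10x 3′ single-nucleus RNA-seq. The authors deposited raw UMI counts per gene and barcode from Cell Ranger 7.0.0 on GRCm38 (mm10), and a table with the quality call, cell type and cluster of each nucleus (Seurat 4.3.0, scVI embedding). By the methods, the authors searched for doublets with scDblFinder at an assumed rate, and no further doublet caller was run here. Whether counting used the strand is not given in the sources used here. The nuclei and types of the authors were used as deposited. The joined matrix was not used, since the 4 libraries have their own. The 4842 barcodes left out by the authors enter no comparison.

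UMI counts were summed per library and cell type and scaled to CPM (Python 3.11.15, numpy 2.4.6, pandas 2.3.3, scipy 1.17.1, matplotlib 3.10.9). Types with at least 5 nuclei in every library were tested with edgeR 4.0.16 (R 4.3.3, limma 3.58.1), using the quasi-likelihood test, TMM factors and genes found in 5% or more of nuclei, at an adjusted p of 0.05. The SE given with edgeR values was derived as the absolute log2 fold change divided by the square root of the F statistic. DESeq2 1.42.0 was an alternative. Other alternatives were library sizes without TMM factors, edgeR's filterByExpr, no filter, the replicate number as a block, and leaving out each library. The test was also run on simulated counts with the same dispersion for every gene. That setting differs from these data, so nothing about its error rate here is drawn from it. Intervals, and limits for a count of 0 among nuclei or UMIs of a gene, are exact 95% intervals. The limit for left-out barcodes uses 3 counts.

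The members and lists were chosen with earlier results of these data known. Named were, per family, the 4 members highest in ependymal nuclei and all tektins; members past the threshold in any type; the 6 largest fitted differences in ependymal nuclei; the 8 highest members of other types; the 5 with at least 100 neuronal UMIs and the highest ratio of top to median neuronal cluster; the members with the smallest and largest ratio of the ependymal level to the next type; all regulators; and the 4 highest genes of each other list. Members named for their choroid plexus ratio, their role in the axoneme, an ependymal cluster, an unadjusted p, or a level in endothelial nuclei, OPC, microglia or neurons beyond this rule were chosen after their values were seen. Some results that this rule names are not reported here.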

Additional observations from a re-analysis of the deposited data

Results flagged for a closer look

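Cilium genes were also present in barcodes that the authors left out of their set of nuclei and that enter no comparison. Of these 4842 barcodes, with a median of 4270 UMIs, 462 held UMIs of at least 10 of the 65 members (9.54%, exact 95% interval 8.73 to 10.4), above the limit of 0.0620% that a count of 0 allows, a limit that any larger count passes. Among the 39461 kept nuclei the share was 6.87% (6.62 to 7.12), and among neurons 14.2%. The members summed to 1206 CPM over the left-out barcodes, within the 746 to 1396 CPM of the cell types other than ependymal, choroid plexus and tanycyte-like. By library they were 80 of 1288 and 145 of 1318 barcodes in the control libraries and 86 of 1003 and 151 of 1233 in the AgRP-Gq;POMC-Gi libraries.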

How the results depend on the processing

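The number of members highest in ependymal nuclei was 50 to 53 under the alternatives, and the fall of *Tekt4* in astrocytes was -1.55 to -1.19 when a library was left out. Its adjusted p by edgeR was 0.0201 with filterByExpr, 0.00969 without TMM factors, 1.5e-06 without a filter and 6.56e-07 with the replicate block, and at most 0.0155 without any other single library, but 0.0609 without AgRP-Gq;POMC-Gi replicate 2. DESeq2 gave -1.37 with an unadjusted p of 7.51e-05 and no adjusted p. Members called in astrocytes were 0 of 14 by DESeq2, 2 of 65 without a filter and 2 of 14 with the replicate block. The shares called over all astrocyte genes were 0.768%, 1.32% and 5.03%. In tanycyte-like nuclei 1 member was called without a filter, beside 48 genes in all. Over all types 0 members were called by DESeq2, 5 without a filter and 2 with the block, beside 205, 917 and 924 genes. Genes called were, in ependymal nuclei, 13 with the block and 0 to 21 with a library left out; in tanycyte-like nuclei 6 without TMM factors, 48 without a filter and 5 to 74 with a library left out; in astrocytes 131 without TMM factors, 305 without a filter, 426 with the block and 69 to 160 with a library left out; in neurons 12 by DESeq2, 1 without a filter, 1 with filterByExpr, 169 with the block and 3 to 2017 with a library left out; and over all types 186, 205, 917 and 924 without TMM factors, by DESeq2, without a filter and with the block, and 203 to 2820 with a library left out. The counts 2017 and 2820 came without AgRP-Gq;POMC-Gi replicate 2. Of the 24 named ependymal members, 194 of 212 values kept their direction and 0 passed. Without TMM factors *Cfap54* was at -0.036, *Dnah12* at -0.014 and *Dnah6* at -0.0078. With a library left out the ranges were -0.24 to 0.037 for *Cfap43*, -0.11 to 0.25 for *Cfap44*, -0.030 to 0.076 for *Cfap54*, -0.034 to 0.54 for *Dnah11*, -0.058 to 0.16 for *Dnah12*, -0.23 to 0.10 for *Dnah9*, -0.019 to 0.27 for *Rsph4a*, -0.41 to 0.26 for *Rsph9*, -0.31 to 0.20 for *Spag1* and -0.70 to 0.24 for *Tekt4*. The cause of these changes was not tested. With the replicate block *Spag5* in astrocytes passed (0.49, adjusted p = 0.00401 by edgeR), and without a filter *Spag5* in astrocytes (adjusted p = 0.0375) and *Cfap20* in OPC (0.65, adjusted p = 0.0468) did. The log2 difference between replicates 1 and 2 of the controls was correlated, across genes, with that of the AgRP-Gq;POMC-Gi group. This correlation was 0.263 in astrocytes, 0.357 in oligodendrocytes, 0.021 in ependymal nuclei and 0.214 in neurons. Replicate 2 of both groups held most choroid plexus nuclei (436 and 329, against 2 and 6). The labels do not say that a number marks a shared animal, day or batch, and with only 2 pairs the numbers are not shown to pair the libraries. In 3 types the correlation was under -0.1, and a crossed pairing, added after seeing the data, called 7 genes in the Ms4a4b type, 1 in Oligodendrocytes/OPC and 0 in fibroblasts, with 0 members. In ependymal nuclei *Tekt2*, *Tekt5*, *Dnah17* and *Dnah8* rest on 5, 3, 3 and 0 UMIs, so their levels there are uncertain.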
